A study of Mus musculus with 9 samples.

Results

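The genes examined here encode subunits of NADPH oxidases, and all but Nox4 belong to the oxidase of phagocytes. They were taken as every probe set whose only platform gene symbol was Cybb, Cyba, Ncf1, Ncf4, Rac2 or Nox4. This gave 12 probe sets of 34945 with 1 symbol, and 6 genes of 18193. Cybb and Ncf1 had 3 probe sets each, Rac2 and Nox4 had 2 each, and Cyba and Ncf4 had 1 each. No probe set naming any of them together with another gene was found.

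The phagocyte oxidase passes electrons from NADPH across a membrane to oxygen and so makes superoxide, which phagocytes use to kill microbes. Its membrane part is a flavocytochrome of Cybb, the catalytic subunit, and Cyba, the small partner that keeps Cybb stable. Ncf1 organises the complex and Ncf4 is an adaptor that binds membrane lipids, and both move with the GTPase Rac2 from the cytosol to the membrane when the cell is activated. Nox4 is a catalytic subunit of fibroblasts, smooth muscle and kidney that also pairs with Cyba, but works without the cytosolic subunits.

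The cells were small intestinal mesenchyme of C57Bl/6J mouse embryos at E18.5, freed of epithelium and grown on collagen matrix for 48 h. They then received Vehicle, Sonic hedgehog (Shh) or Indian hedgehog (Ihh) ligand for 24 h, with 3 Affymetrix arrays for each treatment. Shh and Ihh are secreted ligands of one pathway, made by gut epithelium and received by mesenchyme, and the study asked which mesenchymal genes respond to them. Neither dose nor the make-up of Vehicle is given in the sources used here. Each array was a pool of wells drawn at random from the 6 of its treatment. P-values therefore measured the spread between pools, which need not be separate animals. No embryo numbers are given in the sources used here.

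Values were log2 expression per probe set, so that a difference of 1 stands for a doubling. Levels of different probe sets cannot be set against each other, and only differences between arrays are compared. Array medians lay between 5.87 and 5.92 log2. All 6 genes lay above them on every array at their brightest probe set, which stands for the gene below. Ptch1, a receptor that the pathway itself induces, was higher on all 6 treated arrays than on all Vehicle arrays (1.48 log2, limma adjusted p = 0.000622). The 13 mesenchyme markers averaged 10.91 to 11.20 log2 on the arrays. The culture also held macrophage transcripts, and in bulk samples fewer cells of a type and less RNA per cell cannot be told apart. The mean of the 7 epithelium markers varied from array to array, by -1.16 to 1.09 log2 around the Vehicle mean with Vehicle and -1.08 to 1.20 with the ligands. Epcam, 1 of the 7, varied little, at 7.72 to 7.98. Gapdh control probe sets at the 3' end of the transcript less those at its 5' end, which track RNA breakdown, gave -0.08 to 0.03 log2 with Vehicle. They gave -0.19 to -0.15 with the ligands, apart from -0.04 on Ihh 1.

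Both ligands together were first compared with Vehicle. Cybb, Ncf4 and Rac2 fell, while Cyba, Ncf1 and Nox4 did not pass the test. Cybb was 1.86-fold, Ncf4 1.58-fold and Rac2 1.33-fold lower. Thus 3 of 6 genes were called lower and 0 higher, against 1.07% of all 18193 genes called lower and 0.434% called higher. The median difference was -0.36 log2 over the 6 genes and 0.00 over all genes. On all 6 treated arrays the same 3 genes lay below every Vehicle array, a pattern seen in 3.8% of all genes. Among the 12 probe sets 4 were called lower and 0 higher, against 0.672% and 0.283% of 34945, and 5 had all treated arrays below all Vehicle arrays, against 3% of all probe sets.

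**Figure D1:**
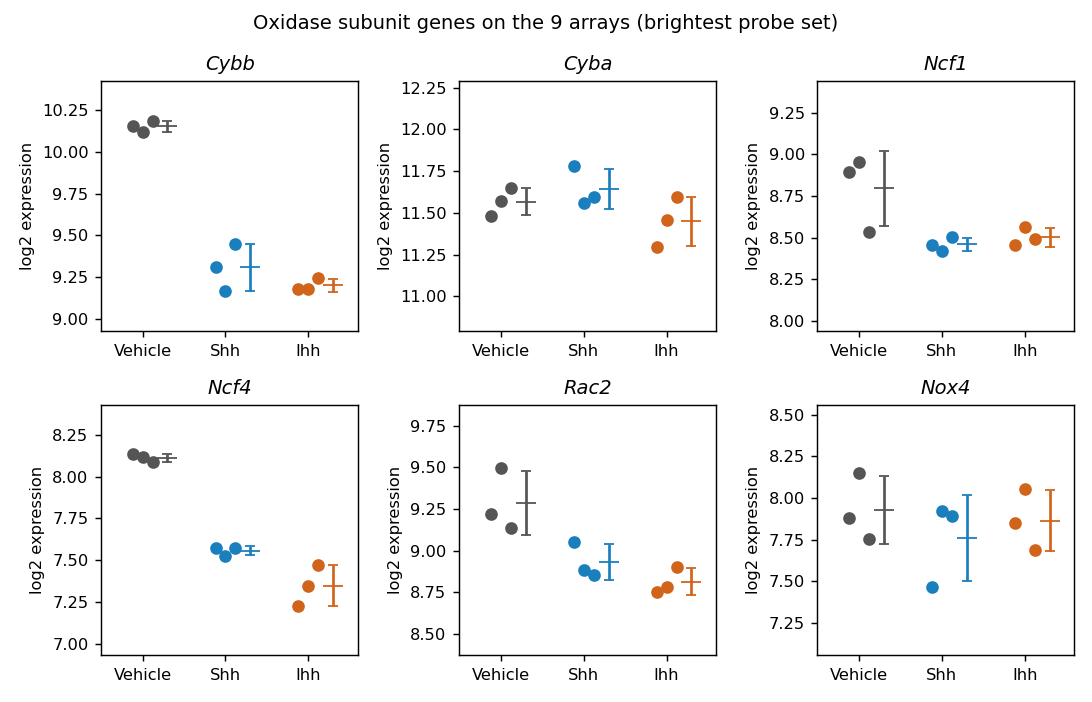
Log2 expression (vertical axis, each panel spanning the same range of log2 units) of the 6 oxidase genes on the Vehicle, Shh and Ihh arrays. Points are arrays, and the bar beside them is the mean with its SD (n = 3). Cybb and Ncf4 are apart from Vehicle with both ligands, Rac2 is apart by a smaller gap, and the groups overlap for Cyba and Nox4. For Ncf1 the Shh arrays lie just below Vehicle and the Ihh arrays overlap it.

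Cybb, the catalytic subunit, lay at 10.16, 10.12 and 10.19 log2 on the 3 Vehicle arrays. It lay at 9.31, 9.17 and 9.45 with Shh and at 9.18, 9.18 and 9.24 with Ihh. The Vehicle arrays were tightly grouped, and every treated array was lower by far more than their spread. The difference was -0.90 ± 0.06 log2 (SE, limma adjusted p = 7.41e-05, 95% interval -1.04 to -0.76). The mean was 10.15 ± 0.03 (SD, n = 3) in the Vehicle group, against 9.31 ± 0.14 for Shh and 9.20 ± 0.04 for Ihh, and the ligand groups overlapped.

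The other Cybb probe sets gave the same direction with different sizes. Probe set 1436779_at lay at 8.36, 8.44 and 8.20 log2 with Vehicle and between 7.01 and 7.28 on the treated arrays, a difference of -1.17 ± 0.08 (limma adjusted p = 7.58e-05 over all probe sets). Probe set 1422978_at lay at 8.46, 8.76 and 8.69 with Vehicle and between 7.73 and 8.28 on the treated arrays, a difference of -0.72 ± 0.10 (adjusted p = 0.00942). All treated arrays lay below all Vehicle arrays at each of the 3 probe sets, as the plot of changes by probe set shows. The call of 1422978_at ended without Vehicle 2, at an adjusted p of 0.0521.

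Cybb is X-linked, and the pools differed in the transcripts Xist, from the inactive X chromosome, and Eif2s3y, from the Y chromosome. Xist lay at 10.83 log2 on Vehicle 1 and at 6.34 and 6.48 on Vehicle 2 and Vehicle 3, whereas Cybb spanned 10.12 to 10.19 on these arrays. Among the Shh arrays Xist was low on Shh 3 (6.43) and high on Shh 1 and Shh 2 (11.31 and 11.24). With Ihh it was high on every array (10.04, 10.28 and 10.66). Eif2s3y lay at 6.24, 8.66 and 8.98 with Vehicle, at 3.24, 3.17 and 8.44 with Shh and at 8.51, 7.54 and 7.74 with Ihh. Cybb was lower than every Vehicle array on all Shh and Ihh arrays. How far the sex of the pools enters the Cybb values was not tested.

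Cyba, the stabilising partner of both Cybb and Nox4, lay at 11.48, 11.57 and 11.65 log2 with Vehicle. It lay at 11.78, 11.56 and 11.59 with Shh and at 11.30, 11.46 and 11.59 with Ihh. The 3 groups overlapped. The difference of both ligands from Vehicle was -0.02 log2 (limma adjusted p = 0.95), with a 95% interval of -0.19 to 0.15, so a fall as large as that of Cybb lay outside the interval. Relative to Cyba on the same array, Cybb was lower by 0.70 to 1.06 log2 on the treated arrays around the Vehicle mean, and the Vehicle arrays spanned -0.05 to 0.09. Relative to Cyba in the same way, Ncf4 lay at -0.76 to -0.57 log2 and Rac2 at -0.46 to -0.26 on the treated arrays, below all Vehicle arrays, whereas for Ncf1 and Nox4 the groups overlapped. These ratios were added after the values were seen and are descriptions.

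The start of Cybb, which fell, and that of its partner Cyba, which did not pass the test, are shown for comparison, from 250 bases before to 30 after the RefSeq gene start in GRCm38.p6. Both lie on the minus strand, Cybb at chrX:9469295-9469574 and Cyba at chr8:122432911-122433190. Capitals mark matches to GAGGAA, the core bound by PU.1, or to the ETS-IRF composite element, which a PU.1 and IRF pair binds, on either strand.
Cybb: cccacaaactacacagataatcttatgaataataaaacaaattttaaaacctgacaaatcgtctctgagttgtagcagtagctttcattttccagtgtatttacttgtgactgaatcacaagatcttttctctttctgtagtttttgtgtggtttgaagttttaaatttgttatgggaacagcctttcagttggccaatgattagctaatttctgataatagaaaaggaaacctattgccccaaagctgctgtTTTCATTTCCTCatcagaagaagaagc
Cyba: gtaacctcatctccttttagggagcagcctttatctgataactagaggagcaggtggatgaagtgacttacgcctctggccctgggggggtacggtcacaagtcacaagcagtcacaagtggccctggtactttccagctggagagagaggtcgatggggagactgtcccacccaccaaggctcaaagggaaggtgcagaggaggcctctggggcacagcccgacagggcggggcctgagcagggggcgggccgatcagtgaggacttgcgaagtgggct

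In the Cybb window both motifs occurred once, on the strand opposite to the gene and overlapping each other, the composite element at bases 4 to 13 and GAGGAA at bases 10 to 15 after the start. The windows of Cyba, Ncf1 and Nox4 held neither. Of 32851 windows of this length, 26% held GAGGAA and 2.55% held the composite element. GACCACCCA, the consensus of the hedgehog factors of the GLI family, occurred in 0 of these 4 windows and in 0.24% of all windows. These are matches of letters, and binding was not measured.

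**Figure D2:**
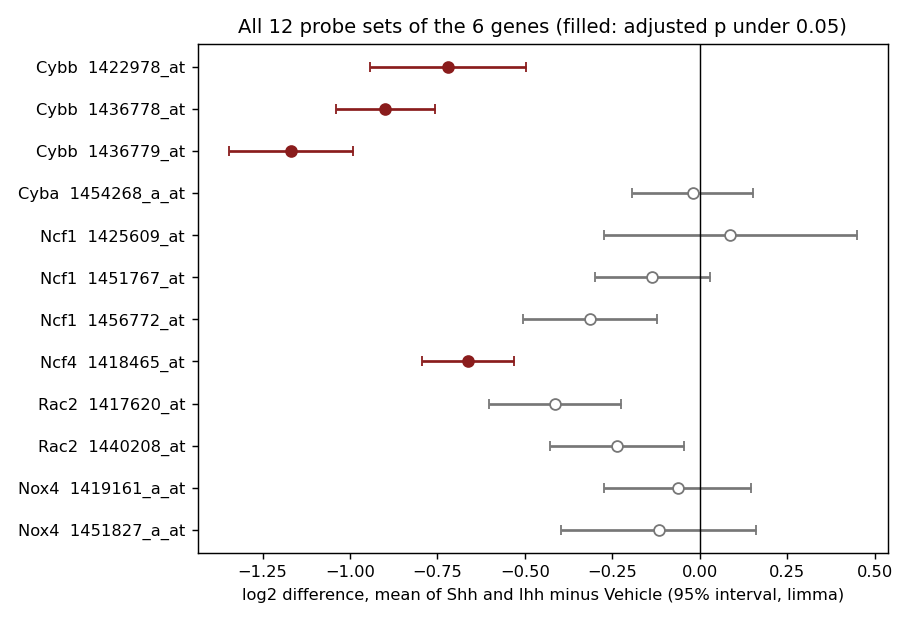
Log2 difference of both ligands from Vehicle (horizontal axis) with its 95% interval for each of the 12 probe sets. Filled points had a limma adjusted p under 0.05 over all probe sets. The 3 Cybb probe sets and that of Ncf4 are filled, and the Ncf1 probe sets run from -0.31 to 0.09.

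Ncf4, the lipid-binding adaptor, lay at 8.14, 8.12 and 8.09 log2 with Vehicle. It lay at 7.57, 7.53 and 7.57 with Shh and at 7.23, 7.34 and 7.47 with Ihh. Both ligand groups lay below Vehicle, and all Ihh arrays lay below all Shh arrays, a pattern seen in 9.37% of all genes. The difference of both ligands from Vehicle was -0.66 ± 0.06 log2 (limma adjusted p = 0.000472).

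Rac2, the GTPase subunit of blood cells, lay at 9.22, 9.50 and 9.14 log2 with Vehicle. It lay at 9.06, 8.89 and 8.86 with Shh and at 8.75, 8.78 and 8.90 with Ihh. The gap between the lowest Vehicle array and the highest treated array, Shh 1, was small beside the spread of Vehicle. The difference was -0.41 ± 0.08 log2 (limma adjusted p = 0.0456). This call ended without any array but Vehicle 3, at an adjusted p of 0.0503 to 0.162. It also ended with the replicate number as a block (adjusted p = 0.0618) and over all probe sets (adjusted p = 0.058). The other Rac2 probe set lay below the median of every array, at 3.98 to 4.46 log2, and differed by -0.24 (adjusted p = 0.257).

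Ncf1, the organiser, had probe sets that did not agree. Its brightest probe set, 1456772_at, lay at 8.89, 8.96 and 8.54 log2 with Vehicle, at 8.46, 8.42 and 8.50 with Shh and at 8.45, 8.57 and 8.49 with Ihh. The treated arrays were close together, and Vehicle 3 lay among them, below Ihh 2. The Shh arrays alone all lay below Vehicle, as in 11.4% of all genes. The difference was -0.31 ± 0.09 log2 (limma adjusted p = 0.119). Without Vehicle 3 it was -0.44 (adjusted p = 0.00404). The probe set 1451767_at differed by -0.14 (adjusted p = 0.472) and 1425609_at by 0.09 (adjusted p = 0.882), with Vehicle and treated arrays overlapping at both.

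Nox4, the fibroblast and smooth muscle oxidase, lay at 7.88, 8.15 and 7.75 log2 with Vehicle, at 7.47, 7.92 and 7.89 with Shh and at 7.85, 8.05 and 7.69 with Ihh. Replicates within each group were as far apart as the groups. The difference was -0.12 log2 (limma adjusted p = 0.766, 95% interval -0.40 to 0.16). Its second probe set lay between 6.65 and 7.13 on the 9 arrays and differed by -0.06 (adjusted p = 0.842).

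Each ligand was then set against Vehicle alone, and the comparisons share the Vehicle arrays. With Shh, 2 of 6 genes were called lower and 0 higher, against 1.24% and 0.489% of all genes. They were Cybb, at -0.84 ± 0.07 log2 (limma adjusted p = 0.00048), and Ncf4, at -0.56 ± 0.07 (adjusted p = 0.00484). With Ihh, 2 of 6 were called lower and 0 higher, against 0.456% and 0.192% of all genes. They were again Cybb, at -0.95 ± 0.07 (adjusted p = 0.000175), and Ncf4, at -0.77 ± 0.07 (adjusted p = 0.000478). Same-numbered Vehicle and Ihh arrays deviated together. In a fit of these 6 arrays alone, 280 genes were called with the number as a block and 87 without it. The fit of all 9 arrays without a block called 118. Cybb and Ncf4 were the members called each time. Rac2 differed by -0.35 with Shh (adjusted p = 0.1) and by -0.47 with Ihh (adjusted p = 0.0743), and Ncf1 by -0.33 and -0.29 (adjusted p = 0.116 and 0.344). Without Vehicle 3 the count rose to 4 genes with each ligand, Rac2 and Ncf1 being called as well (Rac2 adjusted p = 0.0492 and 0.0333, Ncf1 adjusted p = 0.00625 and 0.0139). Calls among all 18193 genes rose too when this array was left out, from 274 to 416 for both ligands together.

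Shh and Ihh were compared with each other directly. Limma called 0 of the 6 genes (unadjusted p under 0.05 in 1, higher with Shh), against 0.011% of all genes called in either direction. The gene with an unadjusted p under 0.05 was Ncf4, which was 0.21 ± 0.07 log2 higher with Shh than with Ihh (adjusted p = 0.308, 95% interval 0.06 to 0.36). The intervals of the other members were -0.05 to 0.27 for Cybb, 0.00 to 0.40 for Cyba, -0.26 to 0.18 for Ncf1, -0.10 to 0.34 for Rac2 and -0.43 to 0.22 for Nox4. Means of Cybb, Ncf4 and Rac2 ran from Vehicle down to Shh and then Ihh. Of the neighbours in that order, Shh and Ihh overlapped for Cybb and Rac2.

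Phagocyte genes of the same cultures did not move as one. Of 24 macrophage markers 2 rose and 5 fell with both ligands, against 0.434% and 1.07% of all genes. The mean of the list was -0.13 to 0.11 log2 on the Vehicle arrays and -0.19 to -0.09 on the treated arrays. The groups overlapped only through Ihh 2 (-0.09) and Vehicle 3 (-0.13). Every other treated array lay below all Vehicle arrays. Csf1r, the growth factor receptor of macrophages, lay at 12.31, 12.33 and 12.04 with Vehicle and at up to 12.35 on the treated arrays, with Vehicle and treated arrays overlapping, and differed by 0.00 (limma adjusted p = 0.995). Its 2 dimmer probe sets differed by -0.14 and -0.17 (adjusted p = 0.618 and 0.486). The complement genes C1qa, C1qb and C1qc, made by resident macrophages, differed by 0.17, 0.15 and 0.14 (adjusted p = 0.366, 0.471 and 0.513), and Mertk, a receptor for dying cells, by 0.04 (adjusted p = 0.903). Other uncalled markers lay lower, with Fcgr1 at -0.74, Fcer1g at -0.29 and Spi1 at -0.26 (limma adjusted p = 0.128, 0.0529 and 0.146). Aif1 and Ptprc differed by -0.16 and -0.15 (adjusted p = 0.465 and 0.577). Of the 24 markers, the unadjusted limma p was under 0.05 in 4 higher and 8 lower. The scavenger receptor Cd163 lay below the median of every array, at 3.72 to 4.16.

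The macrophage markers that fell were led by Cd14, the endotoxin co-receptor, at -1.66 ± 0.10 log2 (limma adjusted p = 3.09e-05). Adgre1, a surface receptor of mature macrophages, changed by -1.04 and the integrin chain Itgam by -0.91 (adjusted p = 0.000269 and 0.00107), and the lysosomal protease Ctsc by -0.41 (adjusted p = 0.0348). The fifth was Lyz2, a lysozyme of phagocytes, at -0.26 (adjusted p = 0.0494). Those that rose were Laptm5, a lysosomal protein of blood cells, at 0.37 (adjusted p = 0.0347), and Cx3cr1, the fractalkine receptor, at 0.87 (adjusted p = 0.0384). Lyz2 lost its call without any array but Ihh 1 (adjusted p up to 0.19) and under 3 alternatives (up to 0.0695). Of the others, Ctsc lost its call without any array but Vehicle 3 or Ihh 1 (adjusted p up to 0.171), and Laptm5 without any but Ihh 1 (up to 0.143). Cx3cr1 lost it without any array but Vehicle 2, Shh 1 or Ihh 1 (up to 0.167). Laptm5 differed by 0.13 (adjusted p = 0.308) when less specific probe sets were left out. The list's count of called genes ran from 3 to 7 when single arrays were left out, and was 4 without less specific probe sets.

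Cybb and Ncf4 were then set against the mean of the 24 markers on the same array, a ratio added after the values were seen and given as a description. Cybb lay at -0.89 to -0.55 log2 on the treated arrays and at -0.15 to 0.16 with Vehicle. Ncf4 lay at -0.72 to -0.37 against -0.11 to 0.11, and Ncf1 at -0.19 to -0.14 against -0.13 to 0.08. For Rac2 the groups overlapped, at -0.41 to -0.06 against -0.08 to 0.10, as they did for Cyba and Nox4. Single markers did not all follow their mean, since Cd14, Adgre1 and Itgam changed by as much as Cybb or more. How far the number or state of macrophages enters these values was not tested. On Ihh 1, the treated array whose Gapdh end difference was like that of Vehicle, Cybb was 9.18 and Ncf4 7.23. This is 1 array, and on the other treated arrays that end difference was -0.19 to -0.15, against -0.08 to 0.03 with Vehicle. The part of RNA quality in the oxidase values was not tested.

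**Figure D3:**
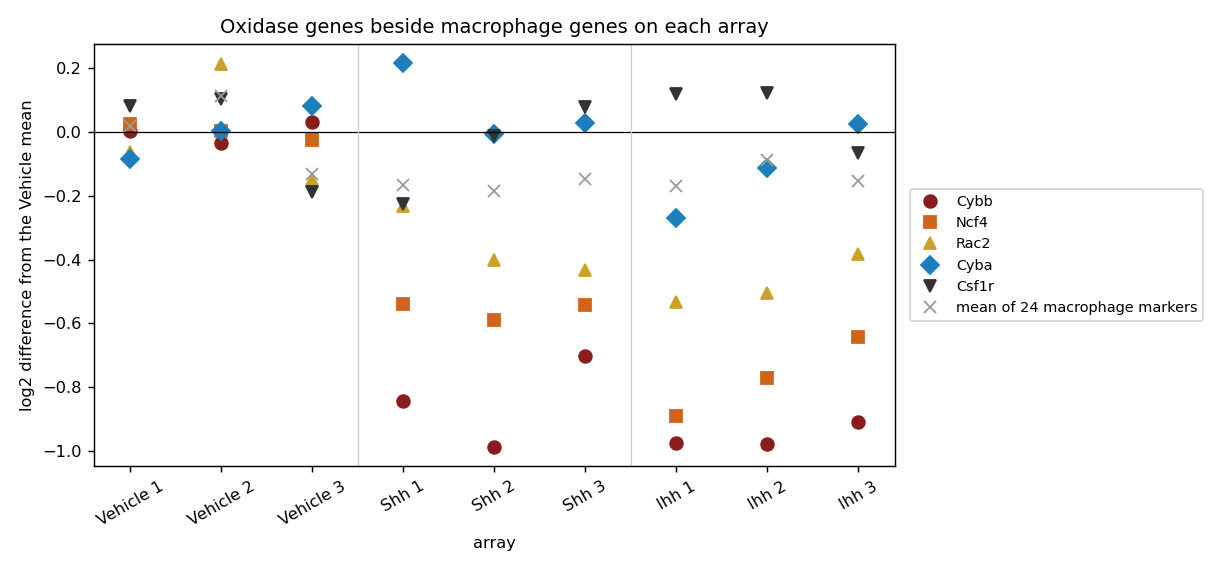
Log2 difference from the Vehicle mean (vertical axis) of Cybb, Ncf4, Rac2, Cyba, Csf1r and the mean of 24 macrophage markers on each of the 9 arrays (horizontal axis). On the treated arrays Cybb and Ncf4 lie below all their Vehicle values, while Csf1r and Cyba overlap theirs. The marker mean overlaps its Vehicle values only on Ihh 2.

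Neutrophils carry the same oxidase. Of 11 neutrophil markers 0 rose and 2 fell, against 0.434% and 1.07% of all genes. They were the collagenase Mmp8, at -1.64 ± 0.07 log2 (limma adjusted p = 5.62e-06), and the iron-binding protein Lcn2, at -1.62 ± 0.20 (adjusted p = 0.00406), which is made by other cells too. Of the other 9 markers, Elane, Mpo, Ltf, Ngp, S100a9 and Cxcr2 lay below the median of every array, at 4.27 to 5.80 log2. The granule gene Camp (7.61 to 8.32) and the calcium-binding S100a8 (7.17 to 8.81) lay above the median of every array and Csf3r, a growth factor receptor, on 7 arrays (5.86 to 6.57). Camp differed by -0.31, S100a8 by -0.21 and Csf3r by -0.32 (limma adjusted p = 0.202, 0.852 and 0.196). The mean of the neutrophil list was -0.10 to 0.13 on the Vehicle arrays and -0.39 to -0.12 on the treated arrays, and its part in the oxidase values was not tested.

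Other blood cells and vessels were read from their markers. Of 10 lymphocyte markers limma called 0 (unadjusted p under 0.05 in 0 higher and 1 lower), but 7 had means below the array medians, where a change could hardly be seen. Of 8 endothelium markers it called 0 for both ligands (unadjusted p under 0.05 in 0 higher and 4 lower), with a median of -0.22 log2. With Shh alone 1 was called lower, against 1.24% of all genes: the junction protein Cdh5, at -0.59 (adjusted p = 0.0464). Tie1, a vessel receptor, differed by -0.59 for both ligands (adjusted p = 0.087) and was called without Vehicle 3 or Ihh 1 and with the replicate number as a block (0.0264). The mean of the endothelium list lay at -0.12 to 0.07 with Vehicle, at -0.38 to -0.32 with Shh and at -0.38 to 0.01 with Ihh, and its part in the oxidase values was not tested.

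Other genes of the oxidase system were read from lists. Of 6 other oxidase family subunits limma called 0 (unadjusted p under 0.05 in 1 higher and 0 lower). Among them Cybc1, a chaperone needed for the Cybb and Cyba flavocytochrome, differed by -0.11 (adjusted p = 0.378), and Noxo1, the organiser of the epithelial oxidase, by 0.12 (adjusted p = 0.257), at 5.41 to 5.66 log2.

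Receptors and signalling proteins tied to the control of the oxidase, not all of them activators, were lower in part. Of 23 measured, 0 rose and 6 fell, against 0.434% and 1.07% of all genes, with a median of -0.20 log2. The unadjusted limma p was under 0.05 in 4 higher and 12 lower. The 4 higher were Clec7a (0.44), Hvcn1 (0.25), Fcgr3 (0.16) and Tyrobp (0.11), at adjusted p of 0.193 to 0.36. With Shh alone Hvcn1 differed by 0.44 (adjusted p = 0.0514) and Clec7a by 0.64 (adjusted p = 0.0967). Of those that fell, Fpr2, a formyl peptide receptor, was lowest, at -3.64 ± 0.17 (limma adjusted p = 5.62e-06). C5ar1, the receptor for complement fragment C5a, changed by -0.69 ± 0.07 (adjusted p = 0.00089). The integrin chains Itgam and Itgb2, which form a complement receptor together, changed by -0.91 and -0.38 (adjusted p = 0.00107 and 0.0336), Itgam being a macrophage marker as well. Vav1, an exchange factor that activates Rac proteins, changed by -0.38 (adjusted p = 0.0278) at 1 probe set and differed by 0.15 (adjusted p = 0.473) at a dimmer one. Itgb2, whose treated and Vehicle arrays overlapped, lost its call without any array but Shh 1 or Ihh 3 (adjusted p up to 0.152). Vav1 lost it without any but Vehicle 3, Shh 1 or Ihh 1 (up to 0.143), and the list's count ran from 3 to 8 when single arrays were left out.

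**Figure D4:**
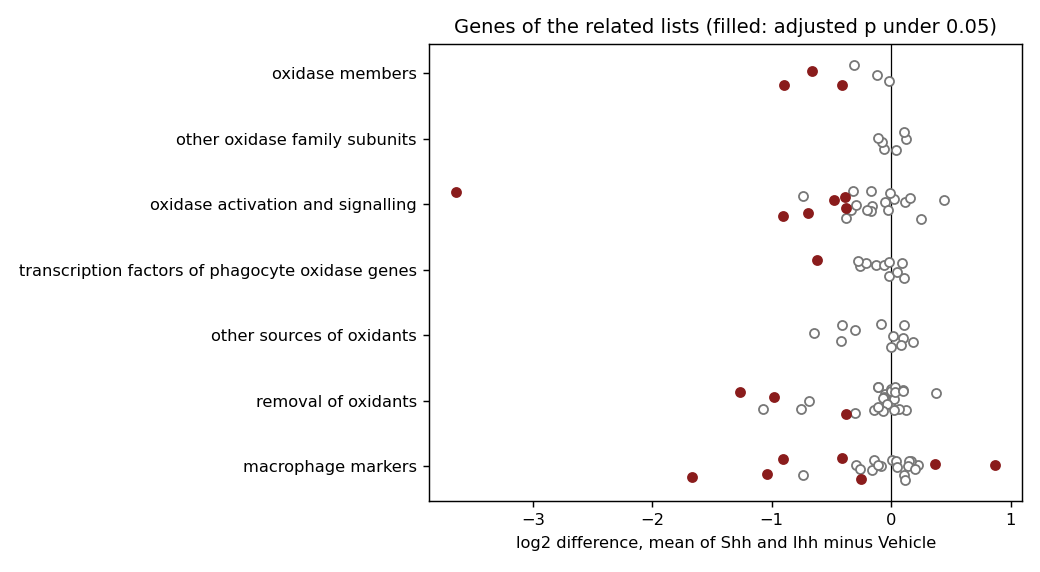
Log2 difference of both ligands from Vehicle (horizontal axis) for each measured gene of the oxidase set and 6 related lists (rows; points are spread vertically only to be seen). Filled points had a limma adjusted p under 0.05. The 6 filled points of the activation list and the 3 of the oxidant removal list are all below 0, and the macrophage markers hold filled points on both sides.

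Transcription factors that act on oxidase genes in myeloid cells were mostly uncalled. Of 11 measured, 0 rose and 1 fell for both ligands, against 0.434% and 1.07% of all genes. The number that fell was 2 without Ihh 1, under 4 of 8 alternatives and with Shh alone (against 1.24% of all genes). The 1 called for both ligands was Cebpb, a factor of inflammatory macrophages, at -0.62 ± 0.08 log2 (limma adjusted p = 0.00396). Rela, a subunit of NF-kB, lay on all treated arrays below all Vehicle arrays and differed by -0.28 (adjusted p = 0.0507), and by -0.35 with Shh alone (adjusted p = 0.0335). Spi1, which encodes the factor PU.1 of myeloid cells, lay at 7.86, 8.16 and 7.90 with Vehicle and between 7.59 and 7.83 on the treated arrays, a difference of -0.26 (adjusted p = 0.146). Irf8, its partner on many promoters, differed by 0.09 (adjusted p = 0.652). The Cybb window shown above holds letters that match the elements bound by PU.1 alone and with such a partner, but binding was not measured. A link of these factors to the Cybb values was not tested.

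Genes that remove oxidants were mostly uncalled. Of 28 measured, 0 rose and 3 fell, against 0.434% and 1.07% of all genes, with a median of -0.06 log2. They were Glrx, a glutaredoxin, at -1.26 ± 0.06 (limma adjusted p = 6.71e-06), Sod2, the mitochondrial enzyme that turns superoxide into hydrogen peroxide, at -0.98 ± 0.06 (adjusted p = 4.58e-05), and Gsr, which regenerates glutathione, at -0.38 ± 0.07 (adjusted p = 0.0259). The call of Gsr ended without Vehicle 1, Vehicle 2, Shh 2, Shh 3 or Ihh 2, with adjusted p reaching 0.139. Over the list, the unadjusted limma p was under 0.05 in 1 higher and 6 lower. The 1 higher was Gpx3, at 0.38 (adjusted p = 0.106). Hmox1, Sod3 and Slc7a11 were lower but short of the threshold, at -1.07, -0.76 and -0.69 (adjusted p = 0.138, 0.109 and 0.0664). The cytosolic Sod1 differed by -0.01 (adjusted p = 0.972) and catalase, Cat, by 0.12 (adjusted p = 0.485).

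Of 11 other sources of oxidants limma called 0 (unadjusted p under 0.05 in 1 higher and 3 lower). Gch1, which makes a cofactor of nitric oxide synthases, differed by -0.65 (adjusted p = 0.0534), and Xdh, xanthine oxidoreductase, by -0.41 (adjusted p = 0.132). Gch1 was called without Shh 3 or Ihh 1 and Xdh without Ihh 1, at an adjusted p as low as 0.0238 and 0.0344. Gch1 was also called after median centring (0.0439), without dim genes (0.0433) and with a trended, robust variance (0.0426). Nos2, the inducible nitric oxide synthase, lay below the median of every array, at 4.73 to 4.97 log2.

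The genes with the profile nearest to each member were found by the root mean square difference of profiles over the 9 arrays, each centred on its own mean. The nearest to Cybb were Sod2 (0.11 log2), Wfdc21 (0.13) and its partner subunit Ncf4 (0.14). Nearest to Ncf4 were Milr1 (0.09), Slc7a8 (0.11) and Cfp (0.12), which encodes the complement regulator properdin. Rac2 was nearest to Arhgdib (0.07), then to Cd69 (0.07) and Slamf9 (0.08). Ncf1 was nearest to Ms4a6d (0.04), Mlkl and Zc3h12d (both 0.05), and Nox4 to Zfp983 (0.05), Pfkfb4 (0.07) and Plbd1 (0.08). Cyba varied so little that 1431 genes lay within 0.1 log2 of its profile, led by A930007A09Rik, Iqcf1 and Pdcd2, against 0 genes for Cybb.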

How the data were processed

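The authors used GCOS and RMA, per the submitters' processing notes (the sources used here give no versions). The deposited values were log2 expression for 45101 probe sets on 9 arrays, and the log2 scale was read from their range. RMA normalizes arrays to a common distribution and compresses low levels, so a shift of all genes would not be seen. Platform annotation gave 34945 probe sets 1 symbol, 932 several and 9160 none, and 64 were controls. RefSeq (GRCm38.p6) changed 0 of these symbols.

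Among the probe sets of 1 symbol, the brightest on average stood for the gene. The 9 arrays entered 1 linear model of the 3 treatments in limma 3.58.1 under R 4.3.3, with empirical Bayes variances (6 residual and 3.88 prior degrees of freedom). The Benjamini-Hochberg adjustment of its two-sided p-values covered all genes, or all probe sets where these are named, and the threshold was 0.05. Ratios of members to Cyba or macrophage markers were added after values were seen. On simulated data with 18193 genes, limma was run for both ligands against Vehicle. It recovered 45.6% of genes changed 1.25-fold, 95.7% of those changed 1.5-fold and 99.1% of those changed 2-fold. Of the calls, 4.19% to 5.67% were false. The simulated noise was drawn independently for each gene and array. It held no deviations shared by genes of a pool, so recovery in the real data may be lower.

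Named from each oxidase-related list were up to 5 called genes by smallest p, otherwise 2, and so also from the macrophage and neutrophil markers. Csf1r and Ptch1 were fixed. Spi1, Irf8, Cx3cr1, Lyz2, Xist, Eif2s3y, Sod1, Cat, Nos2, Mertk, Cd163, the C1q genes, Rela, Cdh5, Tie1 and the uncalled neutrophil genes were chosen after their values were seen. So were Fcgr1, Fcer1g, Aif1, Ptprc, Epcam, Hmox1, Sod3, Slc7a11, Gpx3, Clec7a, Hvcn1, Fcgr3 and Tyrobp. Deviations from group means correlated at 0.23 to 0.54 for all 3 same-numbered pairs of Vehicle and Ihh, and at -0.48 to 0.22 for their differently numbered pairs. Same-numbered pairs gave -0.16 to 0.14 for Vehicle and Shh and -0.30 to -0.08 for Shh and Ihh. Differently numbered pairs of Shh and Ihh reached 0.29. The labels number the replicates but state no pairing, so whether arrays are paired is not known. Members and lists were chosen with earlier results of these data known. RefSeq promoter windows matched 4 of 6 members (not Ncf4 or Rac2). The alternatives tried were the replicate block, normalizations, filters, probe set choices, variance models and leaving out each array.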

Additional observations from a re-analysis of the deposited data

How the results depend on the processing

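Cybb and Ncf4 kept their direction and their call in all 3 comparisons with Vehicle under all 8 alternatives and without any 1 array, at adjusted p up to 0.00507 and 0.0291. Genes called lay between 233 and 379 for both ligands under the 8 alternatives, between 99 (without Vehicle 2) and 416 (without Vehicle 3) when 1 array was left out, between 80 and 675 for Shh, between 53 and 229 for Ihh and between 1 and 2 for Shh against Ihh. Members called lay between 2 and 4 for both ligands, for Shh and for Ihh. The replicate number as a block gave 522 genes for Shh against 314 without it, 379 for both ligands against 274, and ended the call of Rac2 (adjusted p = 0.0618). It changed no other call among the members. Same-numbered arrays deviated together only for Vehicle and Ihh, and the labels state no pairing. In a fit of these arrays alone the block gave 280 genes for Ihh, against 87 without it and 118 with all arrays, and 2 members each time. Rac2 also lost its call after quantile normalization again (adjusted p = 0.0583), with the mean of its probe sets (0.0578) and with every probe set tested (0.058), and gained one for Ihh with a trended, robust variance (0.0435). The called fall of Vav1 turned sign (0.15) without less specific probe sets, where a dimmer probe set stood for it. Among differences short of the threshold, signs turned for Ncf1 between the ligands (0.0068 after quantile normalization and 0.15 with the mean of probe sets) and for Csf1r (-0.0168 with arrays centred and -0.10 with the mean of probe sets). Without 1 array they ran from -0.0626 to 0.0205 for Cyba, -0.16 to 0.0464 (Ihh) and -0.19 to 0.0429 (between ligands) for Nox4, -0.10 to 0.0168 for its dimmer probe set, -0.0387 to 0.32 for 1425609_at of Ncf1, -0.091 to 0.0543 for Csf1r, -0.23 to 1.18 for Krt18 and -0.0376 to 0.73 for Cldn7, both epithelial. The causes were not tested. The fit of Vehicle and Ihh arrays alone and alternatives for list genes and list counts were added after the data were seen. Signal over background, and 3 arrays a group, limit what small differences could be seen.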
